A study of Mus musculus with 6 samples.

Results

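The regions described here are those with an H3K27ac peak in proliferating C2C12 myoblasts, after 36 h of differentiation, or in both. C2C12 is a mouse myoblast line that exits the cell cycle and fuses into myotubes in culture. Histone H3 acetylated at lysine 27 (H3K27ac) was measured by chromatin immunoprecipitation and sequencing (ChIP-seq) in a series on TAp63, a transactivating form of the p53-family factor p63, in muscle differentiation. The labels give the stage itself as the treatment and name no genotype or further agent for either group. Each stage is 1 library made from DNA pooled over 4 ChIP assays with 1.2 µg of antibody each. Peaks of both lists that overlapped by at least 1 bp were merged, which joined 146818 peaks into 98670 regions, of 243962 peaks in the 3 lists of the series. With 1 library a stage there was no spread between cultures to set a difference against, so every comparison of stages below is a description without a test.

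H3K27ac is written by the acetyltransferases p300 and CBP and marks active promoters and enhancers. In myogenic cells the factor MyoD binds regulatory sites together with these enzymes, and new acetylation is a known step as myoblasts leave the cycle and turn on muscle genes. Long, dense runs of acetylated sites are often found around genes that define a cell's identity. All positions are on mouse build mm9 and were not linked to genes, so the labelled cell type was not checked against marker loci.

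The ChIP library of 36 h was 1.2 times as deep as that of proliferation, as recovered from the fold and p-value of each peak. The genome-wide background, which stands for input depth if the input was the control, was 1.24 times that of proliferation. The local background, the level against which a peak was called, differed more. Its median at peaks was 1.93 times the genome-wide background in proliferation and 1.06 times at 36 h. It stood above the genome-wide level at 91.8% of proliferation peaks and 55.0% of 36 h peaks. A higher background asks for more fragments before a peak is called, and its part in the differences below was addressed only by rescaling the 36 h list, as given beside the counts.

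After 36 h of differentiation, H3K27ac peaks were more numerous and the widest of them were wider, while the median width was nearly the same in the lists as deposited. The 36 h list held 89717 peaks over 56.0 Mb and the proliferation list 57101 peaks over 31.3 Mb, a surplus of 32616 peaks and 24.7 Mb. The median width was 376 bp at 36 h and 363 bp in proliferation, and the lower quartile was 220 bp in both. The lists separated in the upper tail, with a 95th percentile of 1919 bp at 36 h and 1560 bp in proliferation. Peaks wider than 2 kb were 2.72 times as many at 36 h, and those wider than 5 kb 5.30 times, at 265 compared with 50. Of the 24.7 Mb surplus, 61.7% lay in peaks wider than 1 kb, although these were 16.6% of 36 h peaks and 12.9% of proliferation peaks. Scaling the 36 h list to the depth of proliferation left 88210 peaks. Scaling its background as well, by the ratio of 1.81 found at regions with peaks of both lists, left 63686 peaks over 49.7 Mb. These were 1.12 times the number and 1.59 times the length of the proliferation list. The median width of the peaks left was 526 bp, 1.45 times that of proliferation, and that of the 57101 strongest peaks of 36 h, equal in number to the proliferation list, was 583 bp. Both settings drop weak, narrow peaks of 36 h and leave the others at their called width, so number is bound to move more than length. At regions with peaks of 1 list only, the median relative background was 1.45 (proliferation only) and 1.03 (36 h only). These medians lie closer together, so the ratio of 1.81 need not hold there.

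**Figure D1:**
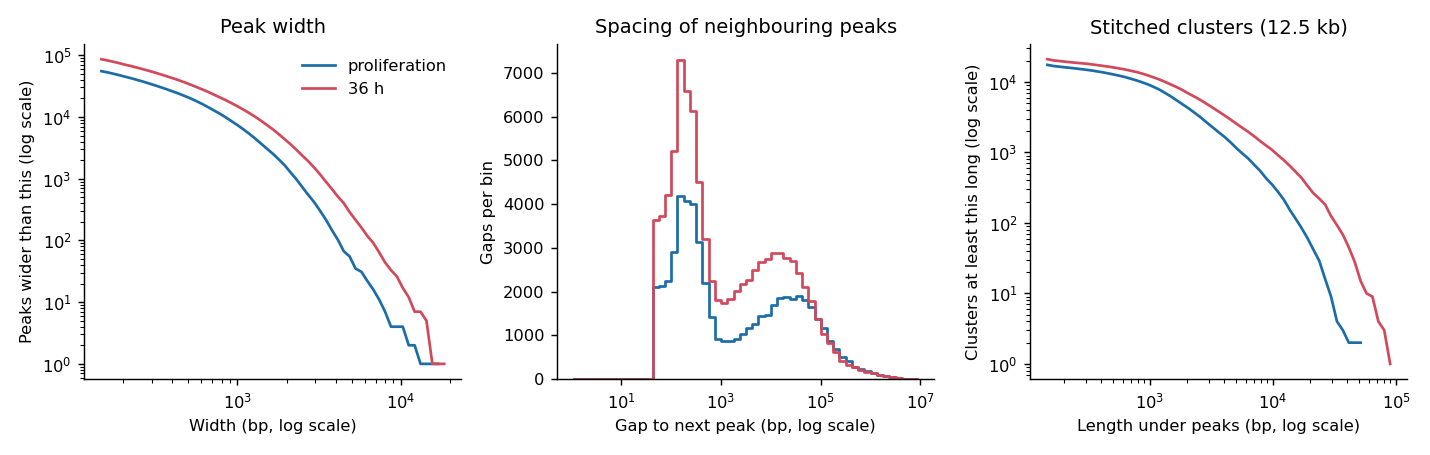
Number of peaks wider than a given width (left, both axes log), gaps between neighbouring peaks of the same list (middle, log axis for the gap) and number of stitched clusters with at least a given length under peaks (right, both axes log), for proliferation (blue) and 36 h (red), 1 library each. The width and cluster curves of 36 h lie above those of proliferation, by a growing factor towards wide peaks and long clusters, and both lists have a group of gaps below 500 bp apart from a broad group above 1 kb.

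Regions with a peak at 36 h only were the largest class under the 1 bp rule, but shared regions held most of the acetylated length. Of the 98670 regions, 33323 (33.8%) had a peak in both lists, 51827 (52.5%) at 36 h only and 13520 (13.7%) in proliferation only. Shared regions had a median width of 837 bp, compared with 283 bp for 36 h only and 231 bp for proliferation only. A shared region spans the peaks of both lists, which favours its width. Shared regions held 87.3% of the length under proliferation peaks and 61.7% of that under 36 h peaks. Wide unshared regions were nearly all of 36 h, with 523 regions over 2 kb compared with 7 of proliferation. The widest were 7993 bp at 36 h and 3043 bp in proliferation.

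The surplus of acetylated length at 36 h lay in unshared regions more than in longer shared ones. Bases under peaks of both lists came to 23.7 Mb. Within shared regions, 36 h peaks covered a further 10.8 Mb and proliferation peaks a further 3.63 Mb, a net 7.21 Mb for 36 h. Unshared regions held 21.5 Mb at 36 h and 3.97 Mb in proliferation, a net 17.5 Mb. Unshared regions therefore made up 70.8% of the surplus and shared regions 29.2%. With depth and background of the 36 h list scaled, 31404 regions of 36 h only and 17582 of proliferation only were counted. With lists of equal number, which forces the totals together, they numbered 26387 and 18786, and shared regions, at 28419, were then the largest class. They were also the largest class when peaks were merged across gaps of up to 1 kb, at 21965 compared with 18599 of 36 h only.

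**Figure D2:**
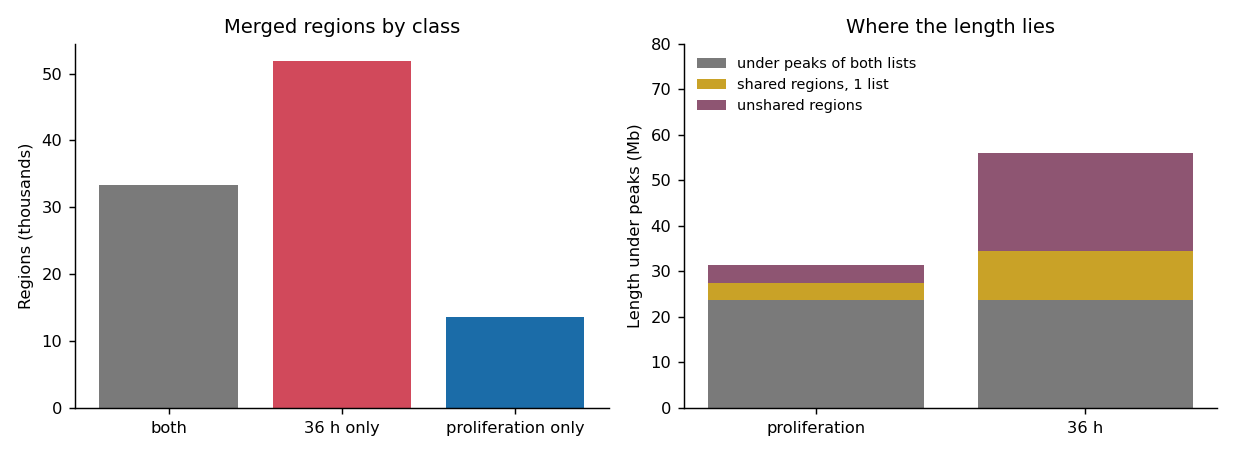
Number of merged regions by class, on an axis in units of 1000 (left), and length under the peaks of each list in Mb (right), split into bases under peaks of both lists (grey), bases of shared regions under 1 list only (yellow) and unshared regions (purple). The grey part is the same 23.7 Mb in both bars, and the unshared part is 21.5 Mb at 36 h and 3.97 Mb in proliferation.

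Few regions lay close to the 1 bp limit, but the overlap of the lists depended on the rule. Under a 50% reciprocal overlap, 35.2% of proliferation peaks and 22.4% of 36 h peaks were overlapped, compared with 76.3% and 42.2% at 1 bp. Merging across gaps of up to 1 kb left 18599 regions of 36 h only and 4369 of proliferation only. That setting also joins peaks of the same list. Only 320 shared regions (0.960%) had under 50 bp covered by both lists, and the median shared region had 461 bp. Just outside the limit, 665 regions of 36 h only (1.28%) and 530 of proliferation only (3.92%) lay under 50 bp from a peak of the other list. The median fold of these edge regions ran from 4.37 to 4.75 in their own lists, below each list's median peak. Fold is the authors' enrichment at the summit and is compared only within a list.

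Strong peaks of proliferation were nearly all present at 36 h, whereas an appreciable number of strong 36 h peaks had none in proliferation. Among the 10% of peaks with the highest −log10 q, 22 of 5710 proliferation peaks and 974 of 8972 peaks of 36 h had no overlap in the other list. Among peaks over 2 kb, 99.5% (95% Wilson interval 99.0 to 99.8%, counting error only) of those of proliferation and 87.1% (86.1 to 88.1%) of those of 36 h were overlapped. Among the narrowest, up to 250 bp, the shares were 58.2% (57.5 to 58.9%) and 21.1% (20.7 to 21.6%). Overlap thus went with width in both lists, and was lower for 36 h peaks at each width. The 36 h list is the longer and its background the lower, and both favour overlap of proliferation peaks.

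Shared regions were as a rule longer at 36 h, and the shorter a region was in proliferation, the larger was its ratio. The median ratio of length under 36 h peaks to length under proliferation peaks was 1.20 (95% interval of the median 1.20 to 1.21, over regions and not over cultures), with quartiles of 0.923 and 1.69. The length was larger at 36 h in 22822 of 33323 regions (68.5%). It was more than 1.5 times larger at 36 h in 10700 regions (32.1%), and more than 1.5 times larger in proliferation in 3778 regions (11.3%). Ratios beyond 2 were found for 5864 regions in favour of 36 h and 1984 in favour of proliferation, and beyond 5 for 852 and 153. Among the 20% of regions shortest in proliferation, with a median of 201 bp there, the median at 36 h was 364 bp, and 62.1% were over 1.5 times longer. Among the 20% longest, with a median of 1718 bp, the median at 36 h was 1948 bp, and 13.0% were over 1.5 times longer. Grouping by length in proliferation favours large ratios among short regions. Grouped by length at 36 h instead, the median ratio was 0.825 in the shortest 20% and 1.33 in the longest 20%. In both groupings the longest regions were longer at 36 h.

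**Figure D3:**
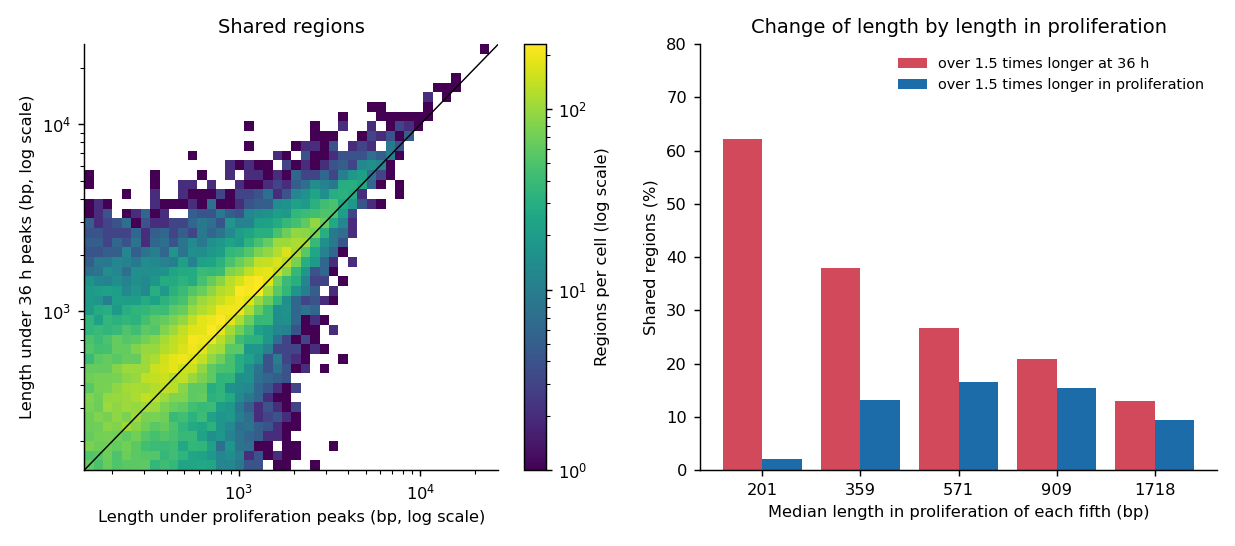
Length under 36 h peaks against length under proliferation peaks for the 33323 shared regions (left, log axes, colour for the number of regions per cell on a log scale, line for equal length), and share of shared regions over 1.5 times longer at 36 h (red) or in proliferation (blue) in 5 groups of equal size by length in proliferation (right). Most regions lie near or above the line, and the red share goes from 62.1% in the shortest group to 13.0% in the longest.

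Summit signal did not follow the general difference in length. The signal above local background at the strongest summit, per unit of depth, had a median ratio of 1.01 between 36 h and proliferation over all shared regions, and was higher at 36 h in 51.1% of them. In regions over 1.5 times longer at 36 h the median signal ratio was 1.38, in those over 1.5 times longer in proliferation it was 0.521, and in the other 18845 regions it was 0.943. Across shared regions the ratio of length and the ratio of signal had a Spearman correlation of 0.68 (n = 33323 regions of the same 2 libraries). Regions longer in one stage were thus stronger there too, while length as a whole was shifted towards 36 h and signal was not. A higher summit favours a longer called length, and a longer region offers more summits to choose from. The 2 ratios are therefore tied in part by construction. The median relative background was 1.98 in proliferation and 1.09 at 36 h over shared regions. It was 1.89 and 1.10 at regions over 1.5 times longer at 36 h, and 1.98 and 1.06 at those longer in proliferation. The part of the background in these differences was not tested.

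In a part of the shared regions, a run of proliferation peaks was covered by 1 continuous peak of 36 h. In 6129 shared regions (18.4%), 2 or more proliferation peaks, 14312 in all, lay under a single 36 h peak. The converse, 1 proliferation peak over 2 or more peaks of 36 h, was found in 2412 regions (7.24%). In regions of the first kind the median length was 1047 bp in proliferation and 1554 bp at 36 h, and up to 11 proliferation peaks were bridged. These regions together held 7.97 Mb in proliferation and 11.6 Mb at 36 h. The gaps between their proliferation peaks count as length only at 36 h, which favours 36 h. Regions with 1 peak of each list numbered 23359 (70.1%), had medians of 425 bp and 555 bp, and held 13.4 and 17.1 Mb. In these the summits stayed close, with a median distance of 62 bp, and 78.2% lay within 147 bp, the smallest peak width in both lists. Both edges lay further out at 36 h in 10211 regions (43.7%) and further in for 3684 (15.8%), and the median shift outwards was 36 bp on the left and 38 bp on the right.

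Regions and clusters on chromosome 18 are in all counts but are not named, so each order of named items is over the other chromosomes. The 5 shared regions with the largest surplus of length at 36 h were all of the bridged kind. At chr8:87253795-87263542, 4 proliferation peaks with 1.16 kb in all lay under a single 36 h peak of 9.75 kb. Its strongest summit had 23 fragments in proliferation and 92 at 36 h, or 77.0 at the depth of proliferation, and its relative background was 1.98 in proliferation and at the genome-wide level at 36 h. At chr2:32025001-32034969, 8 proliferation peaks with 2.65 kb lay under 1 peak of 9.97 kb, with 29 and 118 summit fragments, the latter 98.7 at the depth of proliferation, and a relative background of 1.31 and 1.60. Both regions had more summit fragments as well as more length at 36 h. At chr2:163172041-163182528, 8 proliferation peaks with 3.69 kb lay under 1 peak of 10.5 kb. At chr8:113235950-113246303, 3 peaks with 3.56 kb lay under 1 peak of 10.4 kb. Its strongest summit had 78 and 145 fragments, the latter 121 at the depth of proliferation. The relative background there was 1.60 in proliferation and 3.19 at 36 h. The region at chr11:6369719-6381736 had 5.30 kb under 6 proliferation peaks and 12.0 kb under 1 peak of 36 h. Each of the 5 also had a peak at 72 h.

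The largest differences in favour of proliferation were smaller. At chr15:74824422-74828134 a proliferation peak of 3.71 kb was met by 2 peaks of 36 h with 0.522 kb in all. Its strongest summit had 64 fragments in proliferation and 16 at 36 h, or 13.4 at the depth of proliferation. The relative background there was 4.95 in proliferation and 1.10 at 36 h. At chr12:25783329-25786546, 3.22 kb stood against 0.190 kb, with 64 and 18 fragments, the latter 15.1 at the depth of proliferation. The relative background was 1.98 and 1.06. The region at chr19:5447365-5450350 had 2.99 kb in proliferation and 0.476 kb at 36 h, again with 64 and 18 fragments (15.1 after scaling). Its relative background was 1.75 in proliferation and at the genome-wide level at 36 h. In these 3 regions a broad proliferation peak had only narrow peaks of few fragments in its place at 36 h. The other 2 were long peaks in proliferation and runs of shorter peaks at 36 h. At chr11:70001340-70008908, 2 proliferation peaks with 7.50 kb overlapped 5 peaks of 36 h with 4.31 kb. At chr12:86130046-86137673, 1 proliferation peak of 7.63 kb overlapped 7 peaks of 36 h with 4.97 kb.

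Of the 5 shared regions that ranked highest by fold in both lists, 4 were longer at 36 h, each by less than 1.5 times. The first, at chr17:46991644-46995833, had 3.60 kb in proliferation and 4.09 kb at 36 h, with 138 and 154 summit fragments, the latter 129 at the depth of proliferation. At chr17:34256474-34260985 the lengths were 4.51 and 4.48 kb, with 134 fragments and 131 after scaling. The region at chr15:80083754-80088164 had 3.45 and 4.36 kb, with 166 fragments and 171 after scaling. At chr6:86473067-86478279 the lengths were 3.96 and 5.21 kb, with 134 fragments and 125 after scaling. The last, at chr6:134515900-134517604, had 1.33 and 1.71 kb, with 118 fragments and 130 after scaling. At equal depth, summit fragments were thus fewer at 36 h in 3 of the 5 regions and more in 2, although all 5 had more before scaling.

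Unshared regions of both stages lay at all distances from the other list, and those of proliferation were more often close to it. The median distance to the nearest peak of the other list was 1.47 kb for proliferation only regions and 6.41 kb for 36 h only regions. Under 1 kb from the other list lay 45.5% of the former and 23.8% of the latter. Beyond 50 kb lay 6002 regions of 36 h only (11.6%) and 1294 of proliferation only (9.57%). The longer 36 h list makes short distances likelier for proliferation regions. Within the 36 h list, the far regions had the higher median fold. The median fold was 4.91 for 36 h only regions under 1 kb from a proliferation peak and 5.35 for those beyond 50 kb, and the median width was 250 and 302 bp. The near regions were seldom wide, with 3.58% over 1 kb, compared with 7.35% at 1 to 5 kb, 7.88% at 5 kb to 12500 bp and 5.75% beyond 50 kb.

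Most 36 h only regions also had a peak at 72 h of differentiation, a library that had no part in the classes and whose list is the longest of the 3. Of the 36 h only regions 65.4% (65.0 to 65.9%) had a 72 h peak, of the proliferation only regions 44.0% (43.2 to 44.9%) and of the shared regions 94.3% (94.0 to 94.5%). Among 36 h only regions the share went with the strength of the region. Among the 25% of 36 h only regions with the highest fold, with a median of 29 summit fragments and 619 bp, 90.3% (89.7 to 90.8%) had a 72 h peak, and among the 25% with the lowest, with 13 fragments and 192 bp, 49.1% of 12957. For proliferation only regions the shares were 59.4% (57.7 to 61.1%) and 39.1% (37.5 to 40.8%). The groups between had 41.2% and 36.3%, so only the strongest group of proliferation only regions stood apart. Distance mattered less. The share for 36 h only regions was 66.1% (65.3 to 67.0%) under 1 kb from a proliferation peak, 61.6% (60.7 to 62.5%) at 1 to 5 kb and 70.3% (69.1 to 71.4%) beyond 50 kb. Shared regions over 1.5 times longer at 36 h had a 72 h peak in 96.1% of cases and those over 1.5 times longer in proliferation in 87.1%.

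**Figure D4:**
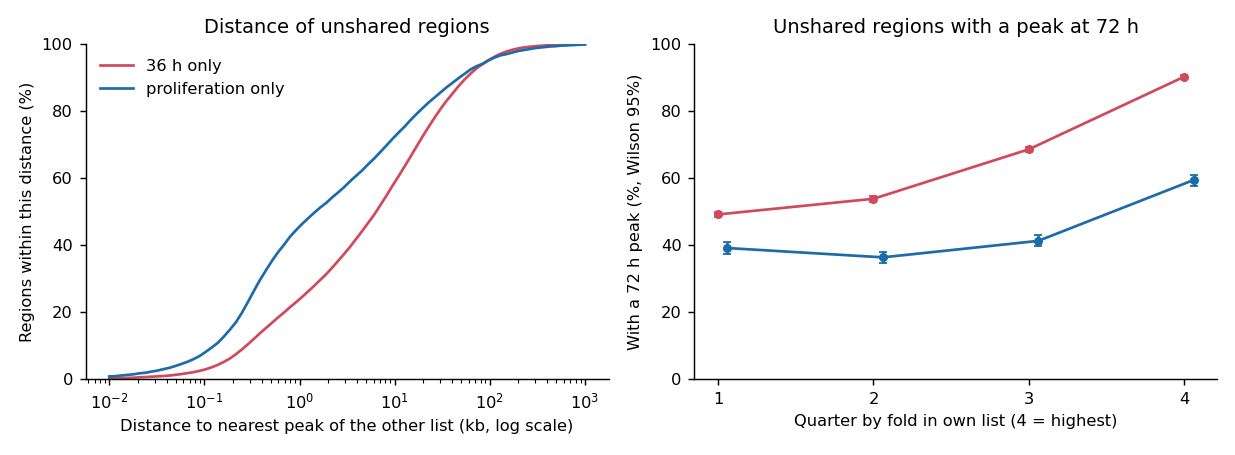
Cumulative share of unshared regions by distance to the nearest peak of the other list, on a log axis in kb (left), and share of unshared regions with a peak at 72 h in 4 groups of equal size by fold in their own list (right, bars for 95% Wilson intervals), for 36 h only (red) and proliferation only (blue). The blue curve rises earlier, with 45.5% under 1 kb compared with 23.8%, and the share with a 72 h peak reaches 90.3% in the strongest group of 36 h only regions.

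Away from proliferation peaks, 28130 regions of 36 h only had no such peak within 5 kb, and the strongest of them ranked among the top 1% of the 36 h list. The first was a peak of 3816 bp at chr4:123292992-123296807, with 109 summit fragments and a fold of 31.8, and the nearest proliferation peak was 22.1 kb away. The next 2 were neighbours, chr11:29707143-29708770 with 99 fragments and chr11:29708960-29710509 with 96. At chr16:44237319-44238882 the nearest proliferation peak to a peak with 94 fragments was 63.4 kb away. The last, at chr2:26925436-26927700, also had 94 fragments, at 24.8 kb. Each of the 5 had a peak at 72 h, and their background was at most 1.14 times the genome-wide level. Choosing by fold favours a low background, and the median over all 36 h only regions was 1.03.

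The corresponding 4938 regions of proliferation only reached lower ranks. The first, of 1184 bp at chr10:67189312-67190495, had 49 summit fragments and a fold of 14.8, above 96.4% of that list, and lay 28.4 kb from a 36 h peak. At chr6:73160749-73161731 a peak had 58 fragments, and another at chr6:137467970-137468598 had 43. The last 2 lay at chr2:122152985-122154583, with 46 fragments, and at chr3:96292264-96292678, with 39. The background at the named regions ran from 1.02 to 1.75 times the genome-wide level. The first 4 had a peak at 72 h and the one on chromosome 3 had none. Called only in proliferation among the lists compared here, these 4 were thus called again at the later stage.

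Neighbouring peaks fell into 2 spacings in both lists, and the shares of gaps differed mainly in the wider one. Gaps of up to 500 bp made up 45.9% of gaps in proliferation and 48.3% at 36 h, and gaps of 500 to 1000 bp only 5.38% and 5.82%. Gaps of 1 kb to 12500 bp were 18.1% in proliferation and 22.4% at 36 h, and longer gaps 30.5% and 23.4%. The upper quartile was 20.6 kb in proliferation and 10.8 kb at 36 h. Gaps over 100 kb numbered 4763 in proliferation and 4259 at 36 h, so long stretches without peaks were nearly as many at 36 h despite the larger number of peaks. The shortest gap was 44 bp in both lists. The median gap was 785 bp in proliferation and 583 bp at 36 h, and sits on the slope between the 2 spacings. It turned with the setting, to 785 and 1831 bp when depth and background of the 36 h list were scaled, and to 785 and 2500 bp with lists of equal number.

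In the lists as deposited, peaks at 36 h were gathered into longer and richer clusters. Peaks of 1 list were stitched across gaps of up to 12500 bp, which gave 17462 clusters in proliferation and 21016 at 36 h. Single peaks made up 32.7% of clusters in proliferation and 28.7% at 36 h. Clusters of 10 or more peaks numbered 929 and 1973 and held 24.7% and 40.6% of all peaks, and clusters of 50 or more numbered 2 and 41. Those with at least 10 kb under peaks, termed long, numbered 342 and 1057, and those with at least 20 kb 53 and 303. Long clusters were alike in density, with a median of 37.2% of their span under peaks in proliferation and 37.0% at 36 h, and their median span was 39.6 and 45.9 kb. With depth and background of the 36 h list scaled, 863 long clusters were counted at 36 h, and with lists of equal number 811. The larger number of 36 h peaks favours rich clusters, and the counts by number of peaks were not rescaled.

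Nearly all long clusters at 36 h had proliferation peaks somewhere in their span. Of the 1057 long clusters at 36 h, 17 had no proliferation peak in their span, and 48, including these, had under 1 kb. Of all 21016 clusters at 36 h, 6852 (32.6%) met no proliferation cluster. Long clusters have a wide span, which favours meeting a proliferation peak. The median long cluster of 36 h had 15.3 kb at 36 h and 7.12 kb in proliferation. In 524 of the long clusters of 36 h (49.6%) 2 or more separate proliferation clusters were joined, compared with 963 of all 21016. At most, 1 cluster of 36 h touched 7. All 342 long clusters of proliferation had 36 h peaks, 213 of them with more length at 36 h and 129 with less. A cluster chosen as long in 1 list is favoured in that list, and the long proliferation clusters nonetheless had a median of 15.2 kb at 36 h and 13.2 kb in proliferation.

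When the peaks of both lists were stitched together, 22497 clusters resulted, 14315 with peaks of both stages, 6372 with peaks of 36 h only and 1810 with peaks of proliferation only. Of the mixed clusters, 47.2% had over 1.5 times more length at 36 h and 12.2% over 1.5 times more in proliferation. Clusters with both stages held 78.3% of the surplus of length at 36 h. Of the 36 h only regions, 70.9% lay in such mixed clusters, compared with 76.8% of the proliferation only regions. Every shared region lies in a mixed cluster by definition. Most 36 h only regions thus belonged to a chain of peaks that included proliferation. The longer 36 h list makes a mixed cluster likelier for proliferation only regions. The lower share of 36 h only regions is therefore not read as a difference between the classes. A surplus of at least 5 kb for 36 h was found in 1257 clusters and for proliferation in 52, and of at least 10 kb in 425 and 5. The 1257 clusters together held 13.1 Mb of surplus, compared with 24.7 Mb net over all peaks.

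The largest surplus lay at chr1:137409633-137762646, a span of 353 kb. It had 92 proliferation peaks with 71.7 kb and 187 peaks of 36 h with 154 kb, and 159 kb were under peaks at 72 h. Peaks of 36 h there stood both over proliferation peaks and in the spaces between them. At chr2:4321089-4552091, 23.5 kb in proliferation stood against 78.6 kb at 36 h. At chr15:27395175-27561119 the lengths were 18.4 and 64.2 kb, and at chr15:58806246-58941565 they were 20.9 and 64.4 kb. The highest ratio of the 5, 5.10 times, was at chr2:29474716-29588241, where 24 proliferation peaks held 10.8 kb and 55 peaks of 36 h held 55.0 kb. The widest peak of that cluster was 1.04 kb in proliferation and 6.68 kb at 36 h. In all 5 clusters the mean relative background was higher in proliferation, at 1.76 to 2.59, than at 36 h, at 1.19 to 1.85. Their ranks hold for the 12500 bp gap. The mean background was also higher in proliferation in the 5 clusters with the largest surplus there, named below. It was 1.75 to 2.91 in proliferation and 1.03 to 1.49 at 36 h.

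Clusters with 36 h peaks and no proliferation peak reached 26.8 kb, at chr1:66963878-67012066, with 23 peaks. Next were clusters at chr2:180096045-180134257 with 20.1 kb, chr11:114654288-114715295 with 19.8 kb, chr8:13179578-13227955 with 18.7 kb and chr13:9295091-9376941 with 16.9 kb. Each of the 5 had still more under peaks at 72 h, between 23.9 and 30.3 kb. Clusters without 36 h peaks were short. The longest had 4.94 kb under 4 proliferation peaks, at chr11:72656132-72663054. The next lay at chr6:88910333-88922685 with 4.53 kb, chr3:102159579-102179031 with 4.30 kb, chr15:87481397-87486192 with 3.87 kb and chr13:109607792-109626511 with 3.78 kb. At 72 h these 5 had between 0.303 and 3.03 kb under peaks.

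A few clusters had more length in proliferation. The largest such difference was at chr10:120040543-120104044, where 21 proliferation peaks held 17.5 kb and 6 peaks of 36 h held 2.09 kb. At 72 h, 10.9 kb of this cluster were under peaks. At chr3:121269882-121321053 proliferation peaks covered 12.4 kb, and later peaks 1.93 kb (36 h) and 2.52 kb (72 h). For chr11:78173785-78213308 the 3 lengths were 19.0, 6.61 and 7.35 kb. In both clusters the length at 72 h was near that at 36 h and below that of proliferation. The cluster at chr11:70001340-70053832 had 22.0 kb in proliferation and 11.3 kb at 36 h, and it contains the shared region of 7.50 and 4.31 kb. At chr3:107534370-107654473 the lengths were 45.8 and 30.8 kb, with 40.1 kb at 72 h.

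**Figure D5:**
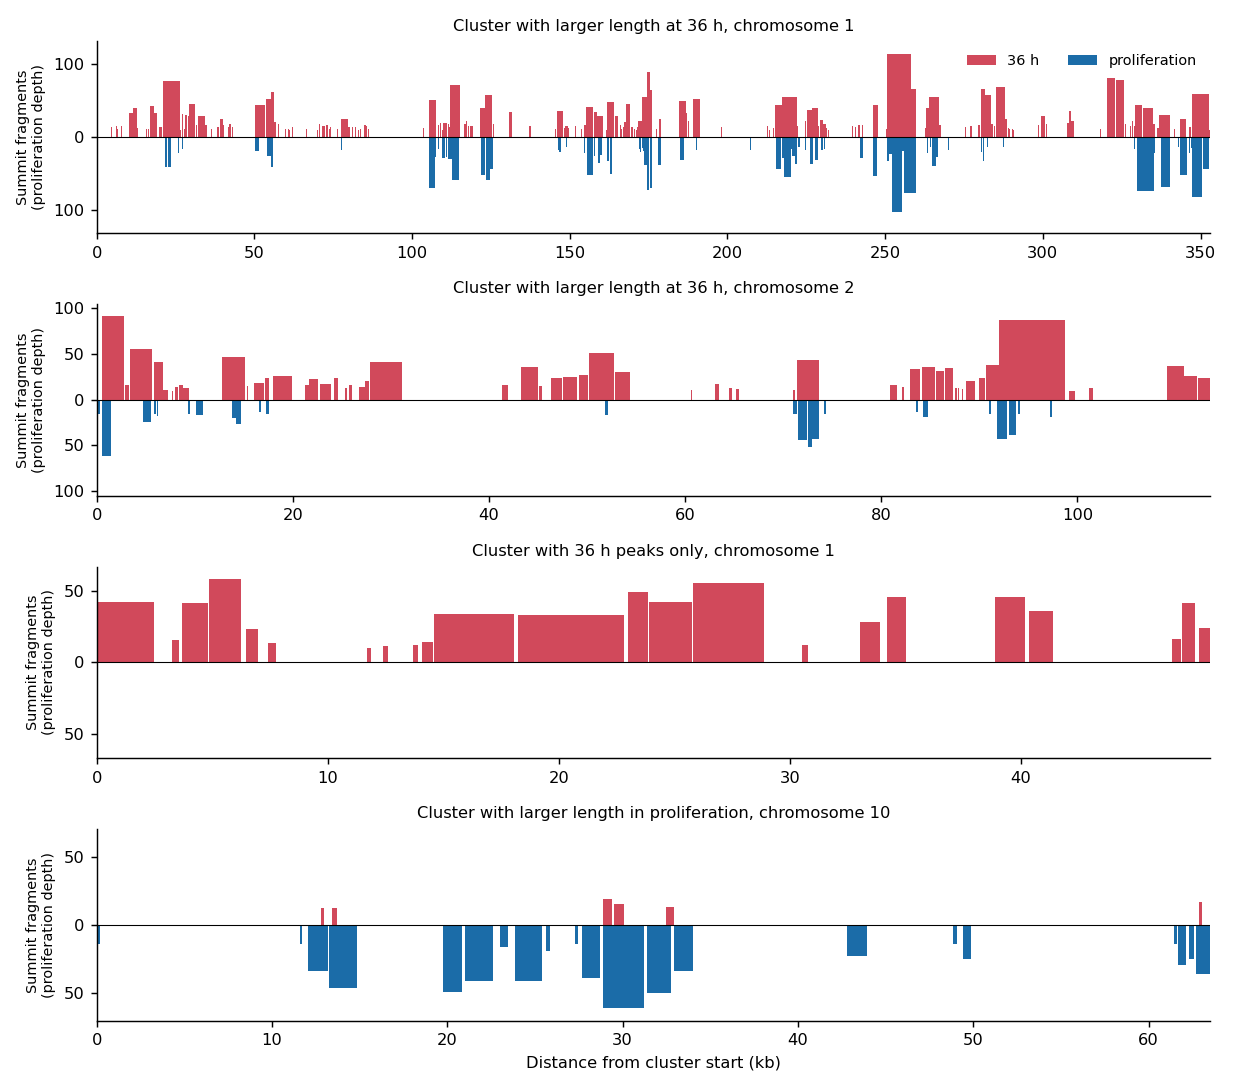
Peaks of 36 h (red, upwards) and proliferation (blue, downwards) along 4 stitched clusters, by distance from the cluster start in kb, each drawn from its start to its end with a height equal to its summit fragments divided by the relative depth of its library. From the top, the clusters have 154 and 71.7 kb (36 h and proliferation), 55.0 and 10.8 kb, 26.8 kb at 36 h only, and 2.09 and 17.5 kb under peaks.

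The surplus at 36 h was spread over the genome. On each of the 20 assembled chromosomes with peaks the 36 h list had more peaks and more length, by 1.41 to 1.71 times in number and 1.55 to 1.95 times in length. Chromosome 18 had the highest ratios. Chromosome 13 had the lowest ratios and the highest share of proliferation only regions, 18.3%, compared with 11.7% on chromosome 11, the lowest. Of 2233 windows of 1 Mb with a peak, 1890 (84.6%) had more length at 36 h and 342 (15.3%) more in proliferation. Windows with 36 h peaks and none of proliferation numbered 79, and the reverse 43. The order of windows by length was similar in both libraries, with a Spearman correlation of 0.91 over the 2233 windows, which share libraries and gene density. In the 1545 windows with at least 10 proliferation peaks the median ratio of length was 1.65, with 0.921 and 2.95 at the 10th and 90th percentiles.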

How the data were processed

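H3K27ac peak lists of proliferating and 36 h differentiating C2C12 cells were compared, with the 72 h list as a further readout. The submitters' processing notes name BWA, MACS2, deepTools and the genome mm9, without versions or settings. Per the narrowPeak column order, the deposited values are a fold (a ratio of ChIP to background at the summit), a −log10 p, a −log10 q, a summit offset and a score, which was not used. The smallest deposited −log10 q was 1.32 in both lists. Peaks were called separately in each library, per the deposited peak names.

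Summit fragments and local background were solved from fold and p as MACS2 computes them, with 1 scale factor per library (0.673 and 0.698). This returned the deposited p of 100% of peaks within a relative tolerance of 0.0003. The background per depth is read as input signal, which assumes that the input was the control. Total reads are not known, and intervals cover counting error only. Peaks on unplaced sequence (154 and 192) were kept.

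Named regions are the 5 per class with the highest fold and no peak of the other list within 5 kb, the 5 shared regions with the largest surplus in each direction and with the highest fold ranks, and the 5 clusters with the largest surplus or longest in 1 list only, leaving out chromosome 18. Members and rules were chosen with earlier results of these data known. Alternatives were a −log10 q or a fold of at least 5, lists of equal number, scaling of the 36 h list to the depth of proliferation, 50% reciprocal overlap, merging across 1 kb, and stitching across 5 or 25 kb. Scaling the background too, by the ratio of 1.81 at shared regions, was added after seeing the data. Merging, overlap and recovery were checked on simulated data. Python 3.11.15, numpy 2.4.6, pandas 2.3.3 and scipy 1.17.1 were used.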

Additional observations from a re-analysis of the deposited data

How the results depend on the processing

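No paired analysis was possible because each stage had 1 library. Of 70 values recomputed under an alternative, 36 stayed within their interval or within 1.5 times (3 of them the long clusters of proliferation under settings that alter only the 36 h list), 32 moved and 2 turned. A limit of 1.5 times is wide for ratios near 1. With depth and background scaled, the ratio of peak numbers went from 1.57 to 1.12. That of median widths went from 1.04 to 1.45, and both are counted as within the limit. The ratio of median spacing (36 h over proliferation, 0.743) turned to 3.18 with lists of equal number and to 2.33 with depth and background scaled, and was 0.422 with a −log10 q of at least 5 and 0.395 with a fold of at least 5. With lists of equal number the ratio of peak numbers is 1 by construction, and the ratio of median widths became 1.61. The share of proliferation peaks overlapped at 36 h (76.3%) became 79.0% with a −log10 q of at least 5, 67.1% with lists of equal number, 69.2% with depth and background scaled and 35.2% with reciprocal overlap. The share of 36 h peaks overlapped in proliferation (42.2%) became 43.0% with the −log10 q limit, 41.6% with the fold limit, 53.8% with equal numbers, 42.6% with depth scaled, 50.7% with background scaled too and 22.4% with reciprocal overlap. Region counts for both, 36 h only and proliferation only became 22030, 33697 and 8311 with the fold limit and 21965, 18599 and 4369 when merged across 1 kb. Regions of 36 h only numbered 26387 with equal numbers and 31404 with depth and background scaled, and those of proliferation only 7775 with the −log10 q limit. Long clusters numbered 168 and 652 (proliferation and 36 h) with gaps up to 5 kb, 517 in proliferation with gaps up to 25 kb, and 210 in proliferation with the fold limit. The median length ratio of shared regions became 1.22 with the −log10 q limit, 1.23 with the fold limit, 1.25 with equal numbers, 1.24 with depth and background scaled and 1.33 when merged across 1 kb. Except where equal numbers, limits or merging fix the totals by construction, the cause of these shifts was not tested. Peaks that remain after scaling keep their called width, so width was not made equal, and weak regions near the calling limit can differ in class through counting error.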
